A study of Mus musculus with 5 samples.

Results

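Of the 8034 genes with a listed transcription start site in this ATAC-seq study of mouse neural progenitor cells, 36 are DNA repair genes, and they hold 128 of the 34714 listed sites. They were chosen by symbol alone, with a pattern that uses no measured value but was set with earlier results of these data known. It takes the Fanconi (Fanc, Faap), Rad, Xrcc and Brca, excision (Ercc, Xpa, Xpc, Parp, Neil), mismatch (Msh, Mlh, Pms) and translesion (Rev1, Rev3l, Pol) names. Smc5, Smc6, Tdp1, Tdp2, Lig3, Nbn and Mdc1 are among the others it takes. Rad and Xrcc names belong to several routes. Below, Rad23b is grouped with nucleotide excision, Rad17 and Rad9b with damage signalling, Rad18 with translesion and Xrcc1 with single-strand breaks. The pattern also takes genes of other main roles: Rad21, a cohesin subunit, the ADP-ribosyltransferase genes Parp8, Parp11 and Parp12, and the helicase gene Ercc6l2.

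ATAC-seq marks open chromatin by the places where a transposase inserts adapters. The cells were C17.2, an established line of multipotent neural stem cells with the strain label CD1 x C57BL/6. All were grown in DMEM/F12 with serum, and neural differentiation was induced in Knockout DMEM with GlutaMAX and N2 supplement. Nuclei were taken at 0 h (labelled control), 0.5 h, 1 h, 1.5 h and 2 h from induction, and each of these 5 times has 1 library. The labels name no genetic alteration. The 0 h sample carries the same treatment label, neural induction, as the others. With 1 library per time there was no replicate error, so no test between times was made, and each difference below is one between single libraries of a single cell line.

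The table gives each short site a whole number from 0 to 10 in each library, read here as how many entries of that library's BED file lay over it. A site with 1 or more entries is called covered. A gene with several sites takes the values of the one whose mean over the libraries was highest. Read depth is unknown, and an entry is not a read: neighbouring sites of a repair gene up to 200 bp apart held equal values in 97.2% of 290 comparisons in which either site had 2 or more entries. A step of 1 entry therefore has no known precision. In bulk nuclei, more cells with an open site and a more open site in each cell cannot be told apart.

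DNA repair removes lesions by several routes. Base and nucleotide excision cut out damaged bases or short stretches of a strand, mismatch repair corrects replication errors, and recombination and end joining mend broken duplexes. The Fanconi pathway unhooks cross-linked strands, and translesion polymerases copy past lesions that stop the replicative enzymes. Dividing neural progenitors use these routes at the replication fork, and inherited defects in several of them affect the developing brain.

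Chromatin at repair gene start sites was covered in nearly every library. For 35 of the 36 genes the site was covered in every library, and for 0 it was uncovered throughout, against 69.0% and 19.2% of all 8034 genes. Rev3l was the exception, with 0 entries at 0 h. The mean over the 5 libraries and all members was 2.53 entries, against 2.00 over all genes and 2.67 over the 5544 genes covered in all 5 libraries. The chosen sites lay from 201 bp upstream to 7067 bp inside the annotated 5′ end, at a median of 224 bp inside, and 31 of 36 lay within 1000 bp of it. The sites of Ercc6l2, Parp11, Parp8, Poli and Rad21 lay farther inside. As to the label of the cells, 8 of 14 neural progenitor markers had a listed site, and 6 of these were covered at 1.5 h and 4 at 0 h. Pax6 and Msi1 held 0 entries in every library, Nes held 2 at 1.5 h and 0 elsewhere, and Sox9 held 4 and Hes1 1 in each. Cdh2 held 3, 7, 5, 7 and 5 entries from 0 to 2 h, Gli3 3, 5, 3, 4 and 3, and Notch1 0, 1, 0, 1 and 3. Of the neuron markers 3 of 7 had a site: Map2 held 2 entries in each library, Syp 1 in each but that of 1 h, and Rbfox3 0. Of the oligodendrocyte lineage markers 4 of 6 had a site: Pdgfra held 4, 4, 3, 4 and 3 entries from 0 to 2 h, and Olig1, Olig2 and Mbp held 0. The 1 microglia and blood marker of 5 with a site, Cx3cr1, held 2 in each library, and 0 of 5 astrocyte and 0 of 4 mesenchymal markers had one. Some markers of neural progenitors and of other cell types were thus covered, and some of each were not. The part of other cells in the values of the repair genes was not tested.

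**Figure D1:**
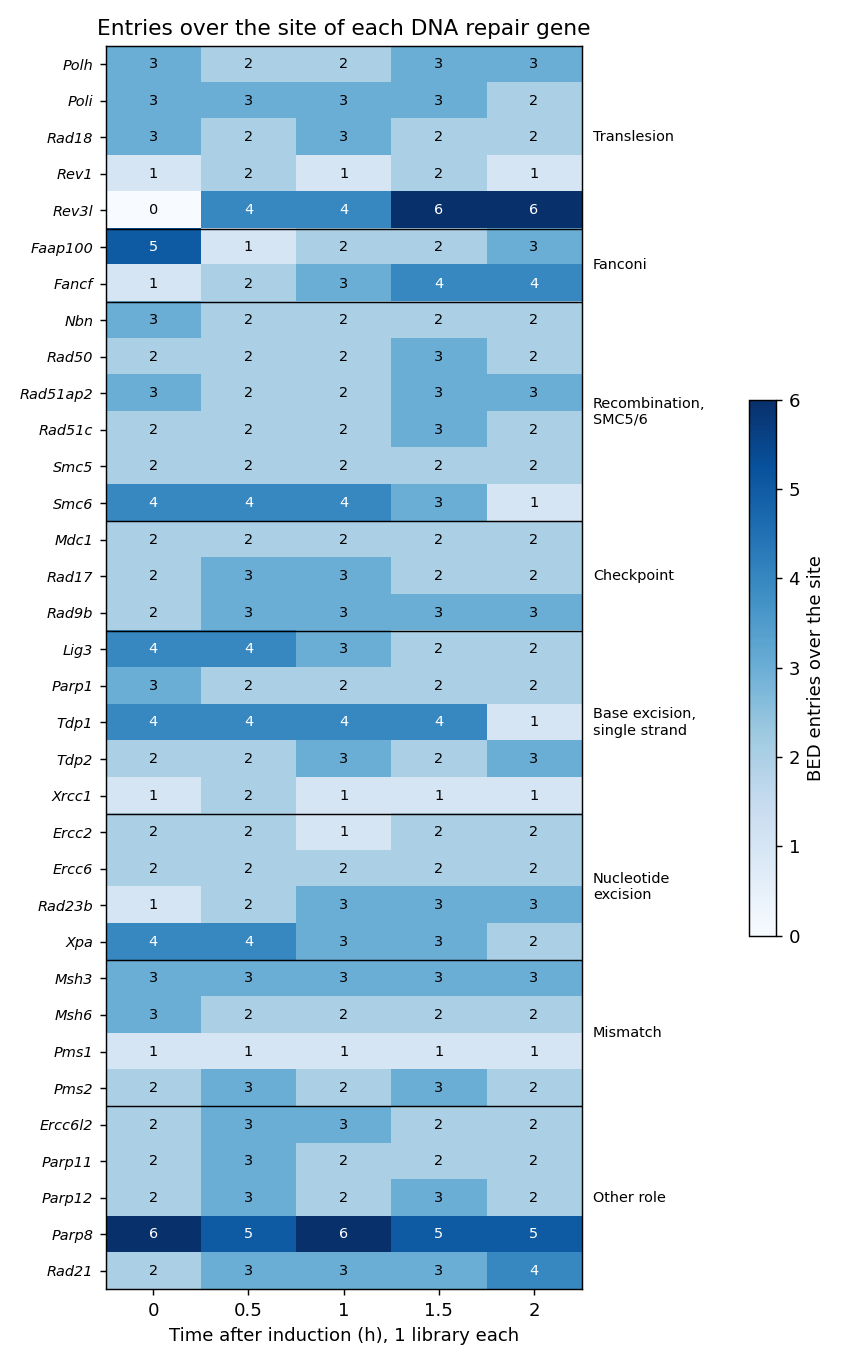
Entries of each library's BED file over the site of each of 34 of the 36 DNA repair genes (rows, grouped by role) at 0, 0.5, 1, 1.5 and 2 h after induction (columns, 1 library each), with the number in each cell. Most rows stay within 1 entry, and Rev3l (0, 4, 4, 6 and 6), Fancf, Faap100, Smc6 and Tdp1 span 3 or more.

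The translesion group held the largest difference. Rev3l encodes the catalytic subunit of DNA polymerase zeta, which extends past lesions. Its site, 810 bp past the 5′ end on chromosome 10 (39732371 to 39732373, build GRCm38), held 0, 4, 4, 6 and 6 entries at 0, 0.5, 1, 1.5 and 2 h. It was thus listed at 0 in the 0 h library, and all later libraries were higher.

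The other sites at this locus qualify that 0. Rev3l has 9 listed sites, and 3 of them, from 39732371 to 39732481, held 0 entries at 0 h. The remaining 6, which begin 158 bp farther in (39732639 to 39732924), held 2, 2, 2, 6 and 6 entries at the 5 times. On the upstream side, 8 sites named for the lncRNA gene E130307A14Rik (39731415 to 39731956), which span the annotated 5′ end of Rev3l, held 2, 4, 4, 6 and 6. The uncovered sites at 0 h thus lay in a stretch of 683 bp between covered sites, and from 0.5 h on no listed site of the locus was uncovered. At 1.5 and 2 h all 17 sites held 6 entries, against 2 or 0 at 0 h.

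Rev1, a deoxycytidyl transferase that also docks the other translesion polymerases, had 22 listed sites. Its highest site, 52 bp upstream (chromosome 1, 38129973), held 1, 2, 1, 2 and 1 entries from 0 to 2 h, so the libraries of 0.5 and 1.5 h were higher than the rest by 1. The number of its sites that were covered differed more, with 7, 12, 6, 20 and 13 in the libraries of 0, 0.5, 1, 1.5 and 2 h. The covered sites spanned 152 bp at 0 h, all upstream of the 5′ end, and 932 bp at 0.5 and 1.5 h, reaching into the gene with uncovered sites between. Of the group's other members, Polh, which encodes polymerase eta and bypasses ultraviolet lesions, held 3, 2, 2, 3 and 3 entries at the 5 times. Poli, the gene of polymerase iota, held 3 in each library up to 1.5 h and 2 at 2 h. Rad18, the ubiquitin ligase that marks the sliding clamp PCNA for translesion synthesis, held 3, 2, 3, 2 and 2.

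**Figure D2:**
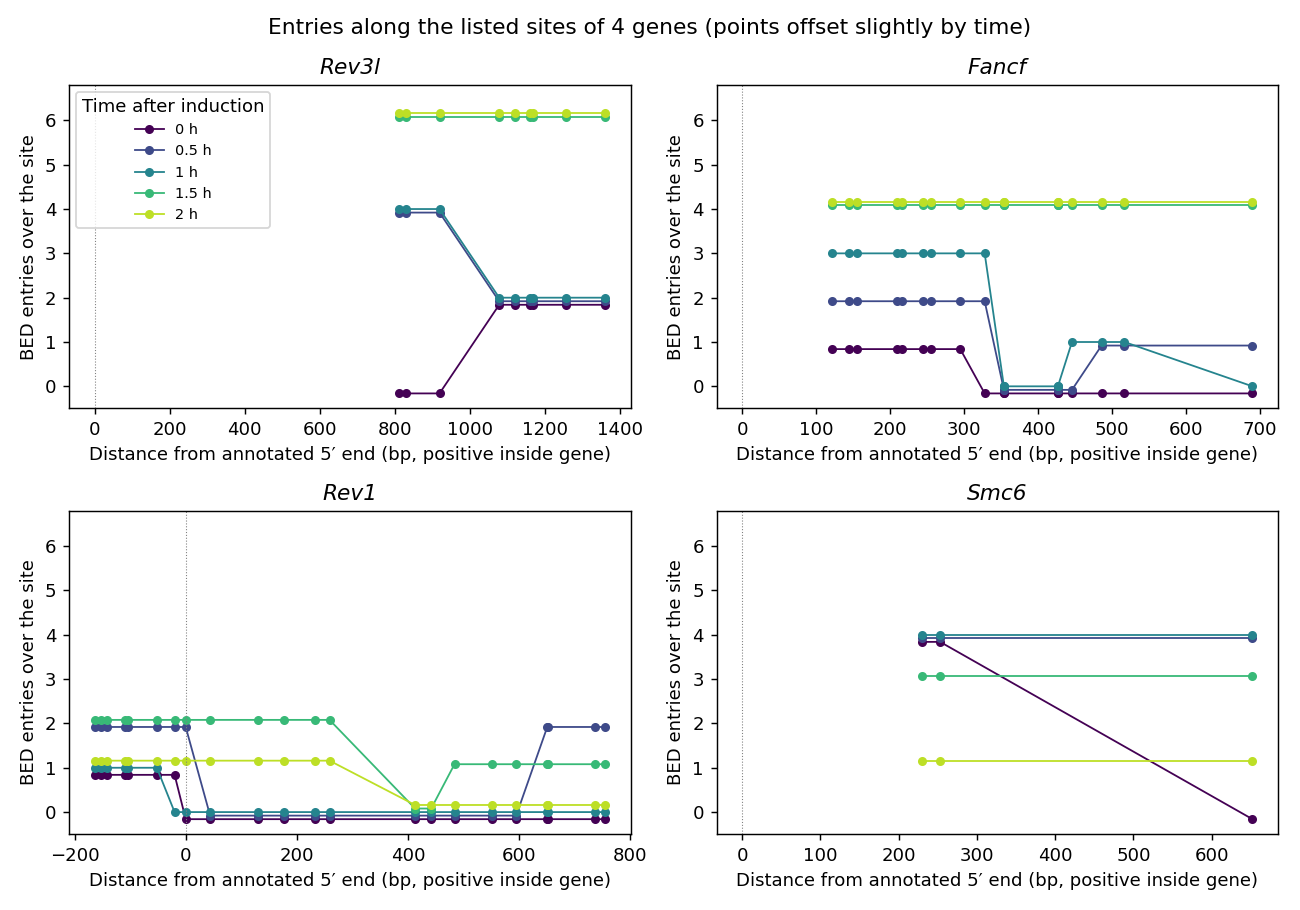
Entries over each listed site of Rev3l, Fancf, Rev1 and Smc6 against its distance from the annotated 5′ end (bp), with 1 line per library from 0 h (darkest) to 2 h (lightest) and a small vertical offset between lines. At 1.5 h the sites of Rev3l from 810 to 919 bp, those of Fancf from 328 to 690 bp and that of Smc6 at 652 bp held 6, 4 and 3 entries, and at 0 h the same sites held 0.

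Both listed members of the Fanconi core complex differed by 3 or more entries, in opposite directions against 0 h. From 0.5 to 2 h the values of neither fell. Fancf, an adaptor that holds the core complex together, held 1, 2, 3, 4 and 4 entries at 0, 0.5, 1, 1.5 and 2 h, 295 bp past the 5′ end on chromosome 7 (51861963). Each step up to 1.5 h was 1 entry, and on the log2(entries + 1) scale used for all ratios here its ratio was 1 at 1 h and 1.32 at 1.5 and 2 h against 0 h. Only 2 of the 8034 genes, Fancf included, had this series of values. Of its 17 sites, 8, 12, 12, 17 and 17 were covered in the same libraries. Faap100, which joins Fancb and Fancl in the catalytic part of the core, held 5, 1, 2, 2 and 3 entries at these times, 52 bp past the 5′ end on chromosome 11 (120378692), and its 4 sites held equal values. Its 0 h library was the highest and its 0.5 h library the lowest, with ratios of −1.58 at 0.5 h, −1 at 1 and 1.5 h and −0.58 at 2 h.

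In the recombination group, Smc6 stood apart at 2 h. Smc6 and Smc5 form a ring-shaped complex that resolves joined DNA molecules. Smc6 held 4, 4, 4, 3 and 1 entries from 0 to 2 h, 230 bp past the 5′ end on chromosome 12 (11266116), a ratio of −1.32 at 2 h against 0 h. A site 652 bp inside the same gene held 0, 4, 4, 3 and 1, so it was uncovered at 0 h. Smc5 held 2 in every library. Nbn and Rad50 belong to the complex that senses broken ends: Nbn held 3 at 0 h and 2 in each later library, and Rad50 held 2 except for 3 at 1.5 h. Rad51c, which acts in recombination, had the same 5 values as Rad50, and Rad51ap2 held 3, 2, 2, 3 and 3.

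The damage signalling genes differed by at most 1 entry. Mdc1, a scaffold at phosphorylated histone H2AX, held 2 entries in each library. Rad17, which loads the checkpoint clamp, held 2, 3, 3, 2 and 2 from 0 to 2 h, and Rad9b, a paralogue of a clamp subunit gene, held 2 at 0 h and 3 at each later time.

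Among base excision and single-strand break genes, Tdp1 showed a low value at 2 h of the same size as that of Smc6. Tdp1 encodes the phosphodiesterase that frees trapped topoisomerase I from DNA ends. It held 4 entries in each library up to 1.5 h and 1 at 2 h, 27 bp upstream of its 5′ end on chromosome 12 (99884482), a ratio of −1.32. All 5 of its sites held these values, as did a site of Efcab11 14 bp away on the opposite strand. Lig3, the ligase that works with the scaffold protein Xrcc1, held 4, 4, 3, 2 and 2 entries at the 5 times, so its 1.5 and 2 h libraries were the lowest. Xrcc1 held 1 except for 2 at 0.5 h. Parp1, the nick sensor that makes poly(ADP-ribose), held 3 at 0 h and 2 in each later library, and Tdp2, which removes trapped topoisomerase II, held 2, 2, 3, 2 and 3.

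The nucleotide excision genes did not move one way. Rad23b, a partner of the damage sensor Xpc, held 1, 2, 3, 3 and 3 entries at 0, 0.5, 1, 1.5 and 2 h, 201 bp upstream of its 5′ end on chromosome 4 (55349838), a ratio of 1 at 1, 1.5 and 2 h. Xpa, which checks the damaged strand, held 4, 4, 3, 3 and 2, and its 2 h library alone was the lowest. Ercc2, a helicase of the general factor TFIIH, held 2 except for 1 at 1 h. Ercc6, which acts where RNA polymerase stalls at lesions, held 2 in each library.

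The mismatch genes described here differed by at most 1 entry. Msh6, of the sensor for single mispaired bases, held 3 entries at 0 h and 2 later, and Msh3, of the sensor for larger loops, held 3 in each library. Pms2, the nuclease subunit that acts after the sensor, held 2, 3, 2, 3 and 2, and Pms1 held 1 throughout. Of the genes with another main role, Rad21 held 2, 3, 3, 3 and 4 entries at the 5 times, Parp8 held 6, 5, 6, 5 and 5, Parp12 2, 3, 2, 3 and 2, Ercc6l2 2, 3, 3, 2 and 2, and Parp11 2 except for 3 at 0.5 h. Parp12 had 4 further sites nearer its 5′ end that held 0 at 0 h and its usual values later.

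Promoter sequence was examined for the members with the largest ratios. A RefSeq promoter table (GRCm38.p6, 250 bp before to 50 bp after a start) held 31 windows for 28 of the 36 genes. Rev3l, whose ratio was the largest, is not among them. The windows of the 5 members in the table with the largest ratio at any time are given 5′ to 3′. The windows of Faap100, Tdp1 and Rad23b hold 3, 4 and 3 listed sites of their gene, and those of Fancf and Smc6 hold 0, since their sites begin 121 and 230 bp inside the gene. They are Faap100 (chr11:120378697-120378996, minus strand), Fancf (chr7:51862218-51862517, minus), Smc6 (chr12:11265636-11265935, plus), Tdp1 (chr12:99884268-99884567, plus) and Rad23b (chr4:55349792-55350091, plus). Capitals mark matches, on either strand, to the GC box GGGCGG, the NFY letters CCAAT, the ETS letters CCGGAAG or the NRF1 core letters GCATGCGC. Distances run from the start to the first base of a match.
Faap100: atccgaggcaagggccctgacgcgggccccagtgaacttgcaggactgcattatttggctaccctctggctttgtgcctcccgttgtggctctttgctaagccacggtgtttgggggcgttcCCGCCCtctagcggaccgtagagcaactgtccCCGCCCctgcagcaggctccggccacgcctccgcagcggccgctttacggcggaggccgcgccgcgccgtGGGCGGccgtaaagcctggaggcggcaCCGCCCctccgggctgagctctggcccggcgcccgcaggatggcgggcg
Fancf: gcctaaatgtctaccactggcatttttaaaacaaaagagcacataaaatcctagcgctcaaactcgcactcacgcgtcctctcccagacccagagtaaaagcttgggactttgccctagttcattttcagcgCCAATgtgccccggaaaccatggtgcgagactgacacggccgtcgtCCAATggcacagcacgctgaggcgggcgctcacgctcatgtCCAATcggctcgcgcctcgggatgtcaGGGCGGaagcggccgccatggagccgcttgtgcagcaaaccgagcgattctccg
Smc6: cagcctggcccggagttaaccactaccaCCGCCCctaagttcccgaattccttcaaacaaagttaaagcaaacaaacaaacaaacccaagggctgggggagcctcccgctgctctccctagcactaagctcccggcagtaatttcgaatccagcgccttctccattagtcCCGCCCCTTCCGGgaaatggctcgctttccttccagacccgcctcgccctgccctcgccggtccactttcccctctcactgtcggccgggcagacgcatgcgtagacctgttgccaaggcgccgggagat
Tdp1: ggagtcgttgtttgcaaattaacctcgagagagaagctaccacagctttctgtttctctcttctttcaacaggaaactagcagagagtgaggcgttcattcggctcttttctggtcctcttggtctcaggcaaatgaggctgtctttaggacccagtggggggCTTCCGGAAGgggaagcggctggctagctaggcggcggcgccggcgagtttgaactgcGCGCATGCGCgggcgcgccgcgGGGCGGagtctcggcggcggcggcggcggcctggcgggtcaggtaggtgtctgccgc
Rad23b: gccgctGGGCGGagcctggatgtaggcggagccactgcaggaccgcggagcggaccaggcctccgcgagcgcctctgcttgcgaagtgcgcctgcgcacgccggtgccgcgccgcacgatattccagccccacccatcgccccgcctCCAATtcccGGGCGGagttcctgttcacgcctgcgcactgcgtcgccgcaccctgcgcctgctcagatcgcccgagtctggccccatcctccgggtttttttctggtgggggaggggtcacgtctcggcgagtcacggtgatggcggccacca

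The windows of Faap100 and Fancf, whose values went opposite ways against 0 h, both hold GC boxes, 4 in Faap100 and 1 in Fancf. Fancf also holds 3 CCAAT matches, at 118, 72 and 31 bp before the start. Each of the windows given holds a GC box, that of Rad23b included, and those of Smc6 and Tdp1, both with 1 entry at 2 h, also hold ETS letters. A link between these letters and the values was not tested. In Smc6 an ETS match 74 bp before the start adjoins a GC box, and in Tdp1 a palindrome gives overlapping ETS matches at 87 and 84 bp before the start. Tdp1 alone of the 5 has NRF1 letters, a palindrome with overlapping matches at 29 and 27 bp before its start. Over all member windows the GC box was found in 23 of 31 (74.2%), against 35.7% of all 32851 windows in the table and 67.6% of the 7848 windows of genes with a listed site. CCAAT was found in 12 (38.7%, against 37.4% and 34.0%), and ETS letters in 6 (19.4%, against 8.86% and 13.2%). NRF1 letters were found in 4, in the windows of Ercc6, Polh, Tdp1 and Xpa (12.9%, against 2.71% and 4.80%). The E2F letters TTTGGCGC and TTTCGCGC were found in 1 and 2 windows, of Msh3 and of Msh3 and Rad51c, or 3.23% and 6.45%. The first stood in 0.514% of all windows and 0.905% of those of genes with a listed site, and the second in 0.323% and 0.573%. The E-box CACGTG was found in 5 (16.1%, against 7.15% and 10.0%) and the CRE letters TGACGTCA in 1 (3.23%, against 1.79% and 2.82%). The AP-1 letters TGANTCA were found in 0 (against 7.81% and 4.55%), as were the YY1 letters AAGATGGCG (against 1.40% and 2.18%). Both strands were searched for each. Member windows had a median of 26 CpG dinucleotides and 60.0% G and C, against 24 and 64.3% for genes with a listed site and 7 and 52.7% for all windows. A match describes letters only.

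Several members share their start region with another gene, so an entry there cannot be given to either gene alone. Listed sites of Xpo5, 87 bp from that of Polh, and of Ak6, 306 bp from that of Rad17, held equal values to these members in all 5 libraries, as Efcab11 did with Tdp1. By the chosen site of each member, the other listed neighbours within 500 bp differed from their member at 0 h. Rev3l held 0 entries then and E130307A14Rik 2, and Parp12 held 2 and 4930599N23Rik, 472 bp away, 0. This does not hold for the 4 Parp12 sites nearer its 5′ end (39118290 to 39118387). They held 0, 3, 2, 3 and 2 entries from 0 to 2 h, equal to 4930599N23Rik (39118419) in all 5 libraries. By RefSeq gene bounds, a boundary of Gas2 lay 172 bp from the site of Fancf, one of Gen1, a Holliday junction resolvase gene, 87 bp from that of Smc6, and one of Vps29 65 bp from that of Rad9b.

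The comparison of each later library with that of 0 h asks what differed after induction. At 0.5 h, 13 repair genes had more entries than at 0 h, 9 fewer and 14 the same number, where 28.1%, 15.6% and 56.2% of all genes did. At 1 h, 10 had more, 9 fewer and 17 the same number (all genes 20.6%, 22% and 57.4%). At 1.5 h, 11 had more, 10 fewer and 15 the same number (31.3%, 17.9% and 50.8%). At 2 h, 6 had more, 12 fewer and 18 the same number (25.7%, 22.9% and 51.4%). Among the 5544 genes covered in all 5 libraries, 32.5%, 25.6%, 33.2% and 26.3% had more entries at 0.5, 1, 1.5 and 2 h. In this group 20.2%, 27.0%, 24.4% and 30.8% had fewer, and 47.3%, 47.3%, 42.5% and 42.9% the same number. The median log2 ratio was 0 at each time, as it was over all genes.

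Few members differed by 2-fold or more, where each gene is 2.78% of the 36. At 0.5 h Rev3l was higher (1 of 36, where 8.18% of all genes were) and Faap100 lower (1 of 36, where 2.19% were). At 1 h Rev3l, Fancf and Rad23b were higher (all genes 4.72%) and Faap100 lower (4.99%). The same 3 genes were higher at 1.5 h (all genes 11.4%), with Faap100 again lower (1.83%). At 2 h these 3 were higher (9.53%), and Smc6 and Tdp1 were lower (3.49%). Of the 5544 genes covered in all 5 libraries, 4.67%, 2.76%, 5.75% and 3.99% were higher at 0.5, 1, 1.5 and 2 h. Lower were 1.61%, 2.56%, 1.84% and 3.41% of that group, which 35 of the 36 members belong to. Rev3l was the 1 gene gained, that is covered at the later time and not at 0 h, at each of the 4 later times, where 4.8%, 2.8%, 7.06% and 6.6% of all genes were gained at 0.5, 1, 1.5 and 2 h. No member was lost at any later time (all genes 1.01%, 3.17%, 0.523% and 1.03%). These comparisons share the 0 h library. The choice of site decided several of these calls. With the mean of all sites of a gene in place of the highest site, the ratio of Rev3l was 0.65 at both 0.5 and 1 h, that of Fancf 0.91 at 1 h and that of Smc6 −0.87 at 2 h, all short of 2-fold. Parp12 was then the 1 member at least 2-fold higher at 0.5 h, with a ratio of 1.26. Rev3l was then covered at 0 h, and so was not gained. With the site nearest to the 5′ end, Parp12 was also at least 2-fold higher at 0.5, 1, 1.5 and 2 h, and Rev1 at 0.5, 1.5 and 2 h.

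**Figure D3:**
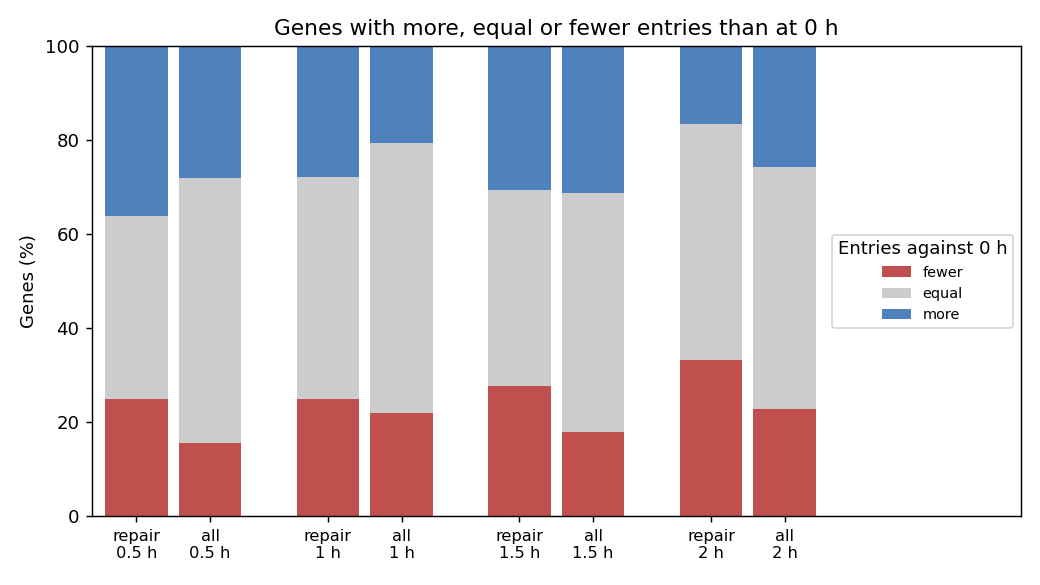
Percent of genes with fewer (red), equal (grey) or more (blue) entries than at 0 h, at 0.5, 1, 1.5 and 2 h, for the 36 DNA repair genes (left bar of each pair) and all 8034 genes (right bar). At 2 h, 12 repair genes had fewer entries and 6 more, against 22.9% and 25.7% of all genes. Of the genes covered in all 5 libraries, which are not drawn, 30.8% had fewer and 26.3% more.

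Summed over the 36 genes, entries came to 89, 93, 93, 96 and 85 in the libraries of 0, 0.5, 1, 1.5 and 2 h. The sums of 0.5, 1 and 1.5 h were 1.04, 1.04 and 1.08 times that of 0 h. Over all genes these ratios were 1.13, 0.983 and 1.16, and over those covered in all 5 libraries 1.08, 0.988 and 1.07. The 2 h sum was 0.955 times that of 0 h, against 1.05 times over all genes and 0.981 over those covered in all 5 libraries. Without Rev3l the sums were 89, 89, 89, 90 and 79, as higher and lower values of the other members offset each other up to 1 h. The 2 h library alone was the lowest of the 5 for Poli, Smc6, Tdp1 and Xpa (4 of 36, where 5.85% of all genes were), and that of 0 h alone for Rev3l, Fancf, Rad23b, Rad21 and Rad9b (5 of 36, all genes 9.65%). The libraries of 0.5, 1 and 1.5 h were alone the lowest for 1, 1 and 0 members (all genes 2.14%, 6.48% and 2.59%). The 0 h library alone was the highest for Faap100, Msh6, Nbn and Parp1 (4 of 36, all genes 6.95%). Those of 0.5, 1, 1.5 and 2 h were alone the highest for 2, 1, 3 and 1 members (all genes 8.28%, 4.37%, 9.15% and 4.69%), among them Rad50 and Rad51c at 1.5 h. Msh6, Nbn and Parp1 had identical values, 3 at 0 h and 2 later, a series found in 92 genes, and Ercc6, Mdc1 and Smc5 held 2 throughout, as 488 genes did. The range over the 5 libraries was at most 1 entry in 25 members (69.4%, against 62.2% of all genes and 59.2% of those covered in all 5) and 3 or more in 5 (13.9%, against 15.1% and 13.6%).

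Counted by site, coverage differed more between libraries. Of the 128 repair gene sites, the libraries of 0, 0.5, 1, 1.5 and 2 h covered 95, 113, 107, 126 and 119, or 74.2%, 88.3%, 83.6%, 98.4% and 93.0%. Over all 34714 sites the shares were 47.6%, 58.7%, 51.2%, 66.9% and 65.7%, in the same order of libraries. Fancf and Rev1 hold 39 of the 128. Without them, 80 of 89 sites were covered at 0 h and all 89 in each later library, and the 9 uncovered at 0 h belonged to Rev3l (3), Parp12 (4), Rad23b (1) and Smc6 (1). Of the 25 members with 2 or more sites, 19 had equal values at all of them, and the 6 others were Fancf, Parp12, Rad23b, Rev1, Rev3l and Smc6. In each of these 6 the libraries differed in which sites were covered.

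**Figure D4:**
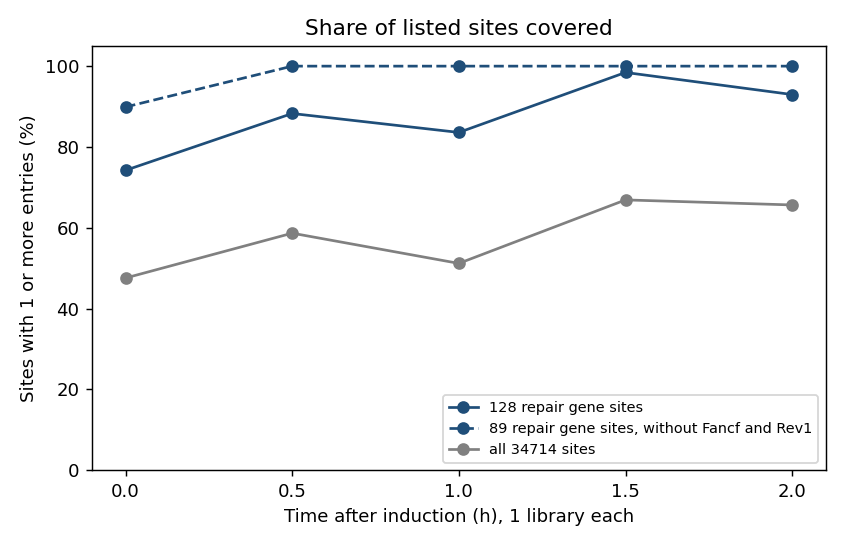
Percent of listed sites with 1 or more entries at 0, 0.5, 1, 1.5 and 2 h (1 library each) for all 128 repair gene sites (solid blue), for the 89 sites left without Fancf and Rev1 (dashed blue) and for all 34714 sites (grey). The 0 h library is lowest in each, and the 89 sites are all covered from 0.5 h on.

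Genes of repair and its checkpoints outside the name pattern were read from a list of their own, of which 42 had a listed site. Of these, 40 were covered at 0 h (95.2%, against 72.8% of all genes). At 0.5, 1, 1.5 and 2 h, 12, 12, 14 and 14 had more entries than at 0 h (all genes 28.1%, 20.6%, 31.3% and 25.7%), and 10, 10, 8 and 13 had fewer (15.6%, 22%, 17.9% and 22.9%). At least 2-fold higher were 3, 3, 4 and 3 of them (all genes 8.18%, 4.72%, 11.4% and 9.53%), and 1, 1, 0 and 2 were lower (2.19%, 4.99%, 1.83% and 3.49%). As shares of 42, the higher counts come to 7.14%, 7.14%, 9.52% and 7.14%. Of the genes covered in all 5 libraries, 4.67%, 2.76%, 5.75% and 3.99% were higher. None spanned 4 entries, and the 4 that spanned 3 were picked out after their values were seen, as were the partners Wdr48 and Mad2l2. Ino80, a chromatin remodeller, held 2, 4, 5, 5 and 5 entries from 0 to 2 h. Usp1, which removes ubiquitin from the Fanconi protein Fancd2, held 1, 3, 3, 4 and 2, and its cofactor Wdr48 held 1 up to 1 h and 2 after. Rif1, which shields broken ends, held 2, 1, 1, 4 and 3, and Sprtn, a protease of DNA-protein cross-links, held 6, 3, 3, 4 and 5. Mad2l2, the partner subunit of Rev3l in polymerase zeta, held 0, 1, 0, 1 and 1.

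Of 15 genes that p53 is known to regulate or that regulate it, among them Ddb2 of the list above, 14 were covered in every library and Perp in none. Of all genes, 69.0% were covered in every library and 19.2% in none. At 0.5, 1, 1.5 and 2 h, 2, 3, 4 and 3 of them had more entries than at 0 h (all genes 28.1%, 20.6%, 31.3% and 25.7%) and 5, 6, 5 and 7 had fewer (15.6%, 22%, 17.9% and 22.9%). None was past 2-fold at 0.5, 1 or 1.5 h, where each gene is 6.67% of the 15. Of all genes, 8.18%, 4.72% and 11.4% were higher at these times and 2.19%, 4.99% and 1.83% lower. At 2 h Bbc3 (3 entries, 1 at 0 h) was higher, as 9.53% of all genes were, and Trp53inp1 (1 entry, 3 at 0 h) lower, as 3.49% were. Cdkn1a, the cell cycle inhibitor, held 4, 3, 5, 6 and 5 entries at the 5 times, at a site 3738 bp inside the gene.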

How the data were processed

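The labels give ATAC-seq of C17.2 nuclei at 5 times with 1 library each. The mouse build GRCm38 (mm10), Bowtie2, MACS2 and deepTools are listed, per the submitters' processing notes, without versions, settings or order. Read shifting, treatment of duplicates and the origin of the site list are not stated there. Each deposited column bears a BED file's name, per the file headers. That its values are entries over a site is an inference, so no count model, library scaling or interval was used. Neither were p-values, with 1 library per time. Depth per library is unknown.

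Columns were matched to samples by title. Genes were matched to the table by symbol, and positions use gene bounds of GRCm38.p6, which matched all 36. Exons, introns and UTRs were not annotated. Ratios are log2(entries + 1) against 0 h, a scale that understates low genes, with no filter on low values; past 2-fold means a difference of 2 or more times on it. The members, lists and measures were chosen with earlier results of these data known, and Rad51ap2 was placed in its role group after its values were seen. Genes of the other lists were to be named where they spanned 4 entries or more; those named outside that rule were chosen after their values were seen. Of the 36 members, 2 count in the totals and are not reported singly here. Counting was tested on simulated data. Alternatives changed the site that stands for a gene, the minimum for coverage, the pseudocount, a filter on the mean and the members. Python 3.11.15, pandas 2.3.3, numpy 2.4.6 and matplotlib 3.10.9 were used.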

Additional observations from a re-analysis of the deposited data

How the results depend on the processing

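No paired analysis was possible because each time has 1 library and no test was made. There was no replicate to leave out. Of 120 recomputed counts and medians, 100 stayed within 1.5 times of the value reported, and all medians stayed at 0. The 20 that moved were all counts of genes gained, lost or past 2-fold, under another site choice or coverage minimum. Coverage at each time stayed within that limit under every alternative run.

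The number of genes gained was 1 at each later time, and the choice of site changed it. With the site nearest to the 5′ end it was 3, 2, 3 and 3 at 0.5, 1, 1.5 and 2 h. With the mean of all sites of a gene it was 4, 3, 4 and 3, since a mean below 1 counts as uncovered. With 2 entries required it was 5, 3, 4 and 3, and the lost genes were 1 at 0.5 h, 1 at 1 h and 2 at 2 h, against 0. The number at least 2-fold higher became 3 at 0.5 h, 5 at 1.5 h and 5 at 2 h with the nearest site, and 1 at 1 h with the mean of sites, which also gave 1 lower at 2 h. Parp12 and Rev1 entered this number with the nearest site. Ratios of Parp12 were then 2, 1.58, 2 and 1.58 at 0.5, 1, 1.5 and 2 h, and those of Rev1 1.58, 0, 1.58 and 1. Shares of all genes under these alternatives are not given here. At 0.5 h the mean of sites left this number at 1 with another gene, Parp12 in place of Rev3l. Smc6 at 1.5 h changed sign with the mean of its sites (0.13, against −0.32), as the site uncovered at 0 h enters that mean. A filter on the mean at the median gene (2.2 entries) kept 29 of 36 members. A requirement of 2 entries of difference, chosen after seeing the data, changed no 2-fold count. It could not do so for a gene covered at both times, where 2-fold means 2 entries or more. The unknown depth limits each single value.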
